A study of Mus musculus with 6 samples.

Results

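The genes described here are long noncoding RNA genes that start away from protein-coding promoters. They were all genes with the type lincRNA (long intergenic noncoding RNA) or processed_transcript on chromosomes 1 to 19 of the GENCODE M1 annotation of mm9 whose start lay more than 2 kb from every start of a protein-coding transcript. The type antisense was also asked for, but 0 genes carry it in this release. Of 34653 annotated genes on these chromosomes, 3669 had a long noncoding type and 2524 met the rule, of which 593 were lincRNA and 1931 were processed_transcript genes. The other 1145 long noncoding genes began within 2 kb of a coding start and were left out, because a peak there cannot be assigned to either gene.

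Open chromatin was measured by ATAC-seq, in which the Tn5 transposase cuts accessible DNA and tags the ends for sequencing, in 3 immortalised mouse cell lines with 2 replicates each. Pax6-HIGH cells (β-TC3) come from an insulinoma, Pax6-ON cells (MV+) from cultured lens epithelia of a wild-type C57BL6 mouse and Pax6-OFF cells (RAG) from a renal adenocarcinoma of the BALB/c strain. All were grown in the same medium, none carried a treatment, the strain therefore differs between ON and OFF cells along with the tissue, and the study did not authenticate the lines. They are also called HIGH, ON and OFF cells below. The replicates of a line were pooled in 1 peak call, so no value below has a replicate error, no test between lines was possible and differences between lines are descriptions of these 3 calls.

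The line labels were compared with marker genes. Of 14 insulinoma and islet markers, 8 had a peak within 1 kb of the start in Pax6-HIGH cells, 4 in ON and 1 in OFF cells, although Ins1, Ins2 and Pdx1 had none in any line. Of 10 renal markers, Pax2, Cdh16 and Emx2 had a peak in Pax6-OFF cells, against 1 marker in each of the other lines. Of 11 lens markers, only 2 had a peak in Pax6-ON cells, as many as in Pax6-OFF cells and fewer than the 3 in Pax6-HIGH cells, and the defining genes Foxe3 and Cryaa had none. Pax6 itself, by which the lines are named, had a peak within 1 kb in Pax6-HIGH cells only, with 55 fragments, and none in Pax6-ON cells. Only the annotated start of each gene as a whole was searched. The paper lists several Pax6 promoters, so the absence in Pax6-ON cells does not cover them all. The lens origin of Pax6-ON cells was therefore not visible in these markers, and the line is named here as the labels name it. The nuclei of Pax6-ON cells were released with more NP40 detergent than those of the other lines, which cannot be told apart from the line itself.

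Long noncoding RNAs are transcribed by RNA polymerase II, and many are capped, spliced and polyadenylated like messenger RNAs but hold no long conserved reading frame. Some act in the nucleus, as Malat1 and Neat1 do at nuclear speckles and paraspeckles. Others silence neighbouring genes in cis, as Airn does at the imprinted Igf2r locus, or serve as precursors of small RNAs. As a class they are known to be expressed at lower levels and in fewer cell types than coding genes, and their promoters less often lie in CpG islands.

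The sequence at the summit, the base of a peak with the most fragments, is shown for 4 members that led their group by pileup. These are the leading member with a peak in all lines and the leading member of each line on its own, each taken as the first in pileup order whose sequence has no copy elsewhere in the reference. Every sequence is 200 bases long, is centred on the summit, comes from NCBIM37 (the assembly of mm9) and is written 5′ to 3′ on the strand of the gene. Capitals mark short motifs found by search on both strands. These were the GC box GGGCGG, the CCAAT box, the TATA box TATAAA, the ETS site CCGGAAG, the cyclic AMP response element (CRE) TGACGTCA, the AP-1 site TGANTCA, the CTCF core AGGNGGC, the NRF1 core GCGCATGC and the forkhead site TNTTTAC. They may overlap, and a match is a description and not evidence of binding. 4932412D23Rik (chr16:42875544-42875743, minus strand, Pax6-HIGH summit) had a peak in all 3 lines, and its sequence holds 3 CCAAT boxes and a GC box. Gm3294 (chr6:28931274-28931473, plus strand, Pax6-HIGH) holds 16 CpG pairs and a CRE. Gm12415 (chr4:84387215-84387414, plus strand, Pax6-ON) holds no CpG pair and 2 AP-1 sites, and its annotated start lies inside the window. A330102I10Rik (chr13:29106411-29106610, plus strand, Pax6-OFF) holds 1 CpG pair, an AP-1 site and a CCAAT box.
4932412D23Rik: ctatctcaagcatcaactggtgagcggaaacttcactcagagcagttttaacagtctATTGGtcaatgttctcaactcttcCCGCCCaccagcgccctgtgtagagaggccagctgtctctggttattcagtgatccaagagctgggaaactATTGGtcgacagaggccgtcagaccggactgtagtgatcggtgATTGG
Gm3294: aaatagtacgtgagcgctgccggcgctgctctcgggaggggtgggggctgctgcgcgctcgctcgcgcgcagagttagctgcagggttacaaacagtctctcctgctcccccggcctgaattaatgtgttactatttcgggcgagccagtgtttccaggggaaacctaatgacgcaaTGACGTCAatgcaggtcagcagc
Gm12415: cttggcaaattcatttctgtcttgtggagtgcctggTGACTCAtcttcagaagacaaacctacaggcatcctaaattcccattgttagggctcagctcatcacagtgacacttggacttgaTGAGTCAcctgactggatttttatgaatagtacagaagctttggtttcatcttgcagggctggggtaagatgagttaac
A330102I10Rik: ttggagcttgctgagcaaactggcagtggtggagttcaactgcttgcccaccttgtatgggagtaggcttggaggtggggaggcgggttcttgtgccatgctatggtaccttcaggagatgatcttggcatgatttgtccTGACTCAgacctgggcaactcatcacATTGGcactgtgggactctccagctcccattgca

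The other 4 sequences belong to long noncoding RNAs with well-known roles that had a peak in these lines. Malat1 (chr19:5803504-5803703, minus strand, Pax6-OFF summit) and Neat1 (chr19:5846357-5846556, minus strand, Pax6-HIGH summit) lie on chromosome 19, and both summits were upstream of the annotated start. Mir17hg, the host gene of the miR-17-92 cluster of growth-promoting microRNAs, is shown at its Pax6-ON summit (chr14:115441323-115441522, plus strand), where 81% of the bases are G or C. Airn (chr17:12934040-12934239, plus strand) is shown at its Pax6-HIGH summit, 37 bp upstream of a start that lies inside Igf2r on the opposite strand.
Malat1: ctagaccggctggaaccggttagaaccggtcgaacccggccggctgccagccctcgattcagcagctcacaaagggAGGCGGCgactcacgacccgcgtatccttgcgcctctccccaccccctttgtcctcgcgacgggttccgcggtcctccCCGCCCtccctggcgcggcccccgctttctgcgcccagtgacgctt
Neat1: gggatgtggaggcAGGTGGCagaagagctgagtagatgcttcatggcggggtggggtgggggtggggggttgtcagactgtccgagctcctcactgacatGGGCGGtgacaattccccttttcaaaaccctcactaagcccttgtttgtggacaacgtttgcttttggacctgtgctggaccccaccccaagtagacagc
Mir17hg: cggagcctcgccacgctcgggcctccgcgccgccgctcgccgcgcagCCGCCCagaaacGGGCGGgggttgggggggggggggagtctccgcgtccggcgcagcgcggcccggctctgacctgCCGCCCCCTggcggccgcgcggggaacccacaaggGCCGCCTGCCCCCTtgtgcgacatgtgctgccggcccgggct
Airn: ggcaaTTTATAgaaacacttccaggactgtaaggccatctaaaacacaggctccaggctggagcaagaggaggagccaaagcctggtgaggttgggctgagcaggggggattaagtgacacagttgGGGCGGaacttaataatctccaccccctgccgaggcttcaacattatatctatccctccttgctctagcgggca

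Few of these promoters were open by the peak calls. A member was counted when any part of a peak lay within 1 kb of its start. By this count 268 of the 2524 members (10.6%) had a peak in Pax6-HIGH cells, 101 (4.00%) in ON and 142 (5.63%) in OFF cells. For protein-coding genes, the background against which these shares are read, the share was 44.3% in Pax6-HIGH cells, 20.4% in ON and 34.7% in OFF cells. In any line, 325 members (12.9%) had a peak and 2199 had none, while 48.3% of 21418 coding starts had one. The lines differed in how much of the genome was called, with 27172 peaks in Pax6-HIGH cells, 9418 in ON and 13394 in OFF cells on these chromosomes. Bases within 1 kb of a peak made up 2.82%, 0.934% and 1.36% of the chromosomes in that order, so the members' shares were 3.76, 4.28 and 4.15 times those of the genome as a whole. When only the 9821 peaks of smallest q-value were kept in each line, the counts became 101 in Pax6-HIGH cells, 101 in ON and 103 in OFF cells, so the larger number in Pax6-HIGH cells was not seen at equal numbers of peaks. With the same peaks, coding starts had one in 26.8% of cases in Pax6-HIGH cells, 20.4% in ON and 29.7% in OFF cells. A member without a peak is one that was not called, since the lowest pileup of any peak was 25 fragments in Pax6-HIGH and OFF cells and 30 in Pax6-ON cells.

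The lincRNA genes were open more often than the processed_transcript genes. Of 593 lincRNA genes 154 (26.0%) had a peak in any line, with 22.3% in Pax6-HIGH cells, 8.94% in ON and 15.2% in OFF cells. Of 1931 processed_transcript genes 171 (8.86%) did, with 7.04%, 2.49% and 2.69% in the same order. Long noncoding genes that began within 2 kb of a coding start, which are not members, had a peak in 61.0% of cases, above the share of coding genes. Peaks there cannot be assigned to one or the other start.

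**Figure D1:**
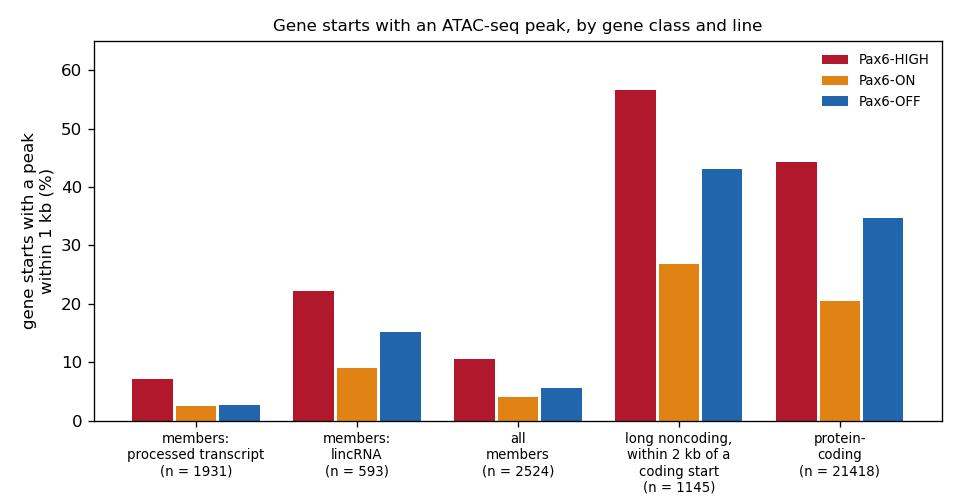
Share of gene starts with a peak within 1 kb (%), for each gene class (horizontal axis, with the number of genes) and line (colours); there are no error bars because each line is 1 pooled call. The members reach 10.6% in Pax6-HIGH cells, against 44.3% of protein-coding genes, and lincRNA genes lie above processed_transcript genes in every line.

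Members with a peak were mostly seen in 1 line. Of the 325, 188 (57.8%) had a peak in 1 line, 88 (27.1%) in 2 lines and 49 (15.1%) in all 3. For coding genes with a peak the shares were 29.0%, 36.2% and 34.8%. The Pax6-HIGH line alone accounted for 144 members (44.3% of the 325, against 21.7% of coding genes with a peak). Pax6-ON alone accounted for 19 (5.85% against 2.07%) and Pax6-OFF alone for 25 (7.69% against 5.14%). A further 55 members shared a peak between Pax6-HIGH and OFF cells, 20 between Pax6-HIGH and ON, and 13 between Pax6-ON and OFF. At 9821 peaks per line, 36 members had a peak only in Pax6-HIGH cells, 37 only in ON and 28 only in OFF cells, so the order of these counts depended on the number of peaks, whereas 36 members were still open in all 3 lines. Of 8095 coding genes with a peak at that number, 894 had one only in Pax6-HIGH cells, 440 only in ON, 1438 only in OFF cells and 3056 in all 3 lines. Where lines shared a member, their highest peaks mostly overlapped by at least 1 bp. They did so at 67 of 69 members open in Pax6-HIGH and ON, 102 of 104 in Pax6-HIGH and OFF, and 62 of 62 in Pax6-ON and OFF cells, with median distances between summits of 37, 79.5 and 34 bp. When peaks had to overlap by 50% of both, 29 members in place of 49 were counted as open in all 3 lines.

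**Figure D2:**
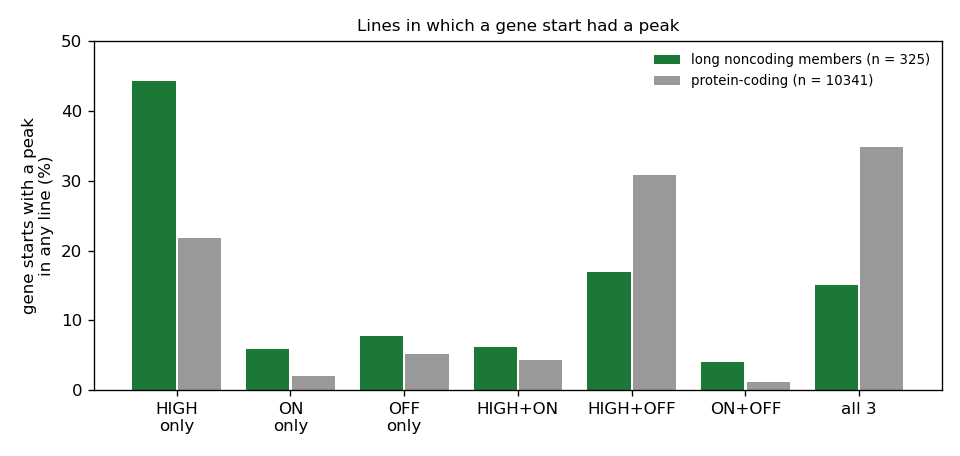
Share of gene starts with a peak in any line (%), split by the lines that had one (horizontal axis), for the 325 members and 10341 protein-coding genes. Members in Pax6-HIGH cells alone make up 44.3% against 21.7% of coding genes, and those in all 3 lines 15.1% against 34.8%.

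The members open in all 3 lines held the highest pileups. The pileup is the number of fragments over the summit. It was not scaled for depth (100254099 fragments in Pax6-HIGH cells, 130955836 in ON and 102223606 in OFF cells), so pileups are ranked within a line, with rank 1 the highest on chromosomes 1 to 19, and are not compared between lines. Intervals given with pileups are exact 95% Poisson intervals and cover counting error only. Duplicates were kept in the calls, so fragments are not all independent counts and these intervals can be too narrow. Pisd-ps2 (chr17:3076578-3084183, minus strand), a transcribed pseudogene of the phosphatidylserine decarboxylase gene, led with 1487 fragments (1412 to 1565) in Pax6-HIGH cells, 1366 (1295 to 1440) in ON and 820 (765 to 878) in OFF cells, at ranks 19, 20 and 37. 2610005L07Rik (chr8:19863337-20020413, minus strand), typed by RefSeq as a transcribed pseudogene, had 851, 1002 and 468 fragments, at ranks 24, 23 and 59. 6820431F20Rik (chr8:19858191-19893124, minus strand), another transcribed pseudogene that overlaps it, had 322, 458 and 207 fragments. These ranks hold for the pileup only. Ranked by fold enrichment over the local background, Pisd-ps2 lay 10.6% from the top in Pax6-HIGH cells, 3.40% in ON and 13.6% in OFF cells. 2610005L07Rik lay at 6.84%, 6.55% and 19.7%, and 6820431F20Rik at 43.8%, 29.2% and 68.8%.

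The values of these 3 pseudogenes are uncertain, because their sequence has copies. At their highest, 32.4% (Pisd-ps2), 52.4% (2610005L07Rik) and 40.0% (6820431F20Rik) of the 31-base words in the 200 bases around the summit occurred again in the reference, and whether fragments of those copies were placed there was not tested. The next entries had no such copies. 4932412D23Rik (chr16:42725815-42875875, minus strand), a lincRNA gene that begins 31883 bp from the nearest start of the transcription factor gene Zbtb20, had 651 fragments (602 to 703) in Pax6-HIGH cells, 323 (289 to 360) in ON and 373 (336 to 413) in OFF cells, at ranks 29, 59 and 72, and its summit lay at the same base in every line, 232 bp downstream of the start. Gm15287 (chr13:112515725-112525332, plus strand) had 259, 179 and 186 fragments. Gm16899 (chr1:7339487-7387882, minus strand), 231340 bp from the nearest coding start, had 302, 174 and 151. These 3 members lay within the highest 3.45% of the peaks of each line by pileup. By fold enrichment 4932412D23Rik lay 11.4%, 5.15% and 6.86% from the top in HIGH, ON and OFF cells, Gm15287 at 0.684%, 2.54% and 3.29%, and Gm16899 at 13.3%, 8.54% and 12.0%.

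Not every member shared by the lines was strong. Gm20482 had 45 fragments in Pax6-HIGH cells, 47 in ON and 35 in OFF cells, and Gm12148 had 61, 38 and 37. Over the 49 members, the median pileup was 107, 65 and 75 fragments, which placed the median member 16.4%, 43.4% and 21.4% from the top of each line. The corresponding coding genes were placed at 12.0%, 40.7% and 21.4%. Members seen in 1 line were lower, with medians of 53 fragments in Pax6-HIGH cells (50.4% from the top), 54 in ON (60.9%) and 42 in OFF cells (66.1%). Coding genes seen in 1 line were placed at 50.4%, 57.1% and 68.5%.

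Members open only in Pax6-HIGH cells were led by Gm3294 (chr6:28931634-28972165, plus strand), which lies 78586 bp from the start of Lep, the leptin gene, with 198 fragments (171 to 228) at rank 964. Gm12059 (chr11:22967998-22975574, plus strand) followed with 166 fragments, Gm16559 (chr3:137944372-137969986, minus strand), 6264 bp from the alcohol dehydrogenase gene Adh6a, with 146, and 1700019G24Rik (chr6:5913909-5927393, minus strand), inside the dynein intermediate chain gene Dync1i1 on the opposite strand, with 142. Gm15762 (chr6) had 140 fragments, with its summit 1122 bp downstream of the start, and A330076H08Rik (chr7) had 134. None had a peak within 1 kb in the other lines. Of these 6, 3 lie on chromosome 6, where Pax6-HIGH cells had 15.3% of all their peaks. Across the members the share was lower, with 24 of 268 Pax6-HIGH members (8.96%) and 19 of the 144 seen only in that line (13.2%) on chromosome 6, which holds 5.11% of all members. Without chromosome 6 the number seen only in Pax6-HIGH cells was 125 of 2395 members.

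Members open only in Pax6-ON cells were led by Gm12415 (chr4:84387379-84388195, plus strand), 66389 bp from the zinc finger gene Bnc2, with 135 fragments (113 to 160) at rank 677 and a summit 64 bp upstream of the start. Gm13227 (chr4) had 98 fragments, Gm16629 (chr15) had 94, 4930473D10Rik (chr10) had 71, Gm13150 (chr4) had 69 and Mir17hg (chr14) had 60. Of the 19 members seen only in this line, 7 (36.8%) lay on chromosome 4, which holds 13.8% of all members and 10.2% of Pax6-ON peaks. The sequence at Gm13150 was not unique, with 91.8% of its words found elsewhere, and the same held for 100% at Gm13165 and 87.6% at Gm12648, also on chromosome 4 and named here after their values were seen. A total of 17 of the 19 were processed_transcript genes.

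Members open only in Pax6-OFF cells included Gm11399 (chr11:3042051-3043366, plus strand), inside the coding gene Sfi1 on the opposite strand, with 297 fragments at rank 93. Its fold enrichment over the local background was only 1.42, and 34.7% of its words had other copies, so the high pileup stood on a high background. Gm7822 (chr13), typed by RefSeq as a pseudogene, had 80 fragments with 64.7% of its words elsewhere. A330102I10Rik (chr13:29106268-29132205, plus strand), 60686 bp from the developmental transcription factor gene Sox4, had 70 fragments (55 to 88), a fold enrichment of 5.72 and a unique sequence. 1700040N02Rik had 63 fragments, Gm16046 had 55 and Gm17225 had 53. The case of 1700040N02Rik shows how the 1 kb limit sets a call, because Pax6-ON cells had a peak of 84 fragments 1024 bp from its start, just outside the limit.

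Members shared by 2 lines included some of high pileup. Gm11818 (chr4:12833985-12908618, plus strand), 734823 bp from the nearest coding start of this annotation and typed as protein-coding by RefSeq, had 323 fragments in Pax6-HIGH (rank 185) and 354 in Pax6-ON cells (rank 48), with the summit 12 bp upstream of the start in both. 9530026P05Rik, which starts inside the metalloprotease gene Adamts9 on the opposite strand, had 185 and 107 fragments. Its summits lay 1043 and 1075 bp from the start, and it had no peak in either line within 500 bp of the start or with the summit within 1 kb. Gm7677 had 146 and 108 fragments. In Pax6-HIGH and OFF cells, A230028O05Rik had 192 and 87 fragments, 1810058I24Rik, which RefSeq also types as protein-coding, had 168 and 57, and Gm15587 had 114 and 72. In Pax6-ON and OFF cells, 9330111N05Rik and Gm4211, which start on opposite strands within 1 kb of each other and share 1 peak, had 141 and 144 fragments. 5830428H23Rik had 200 and 108 fragments, and 9430037G07Rik and Gm17683 shared a peak of 170 and 94 fragments whose words were repeated in up to 81.2%.

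**Figure D3:**
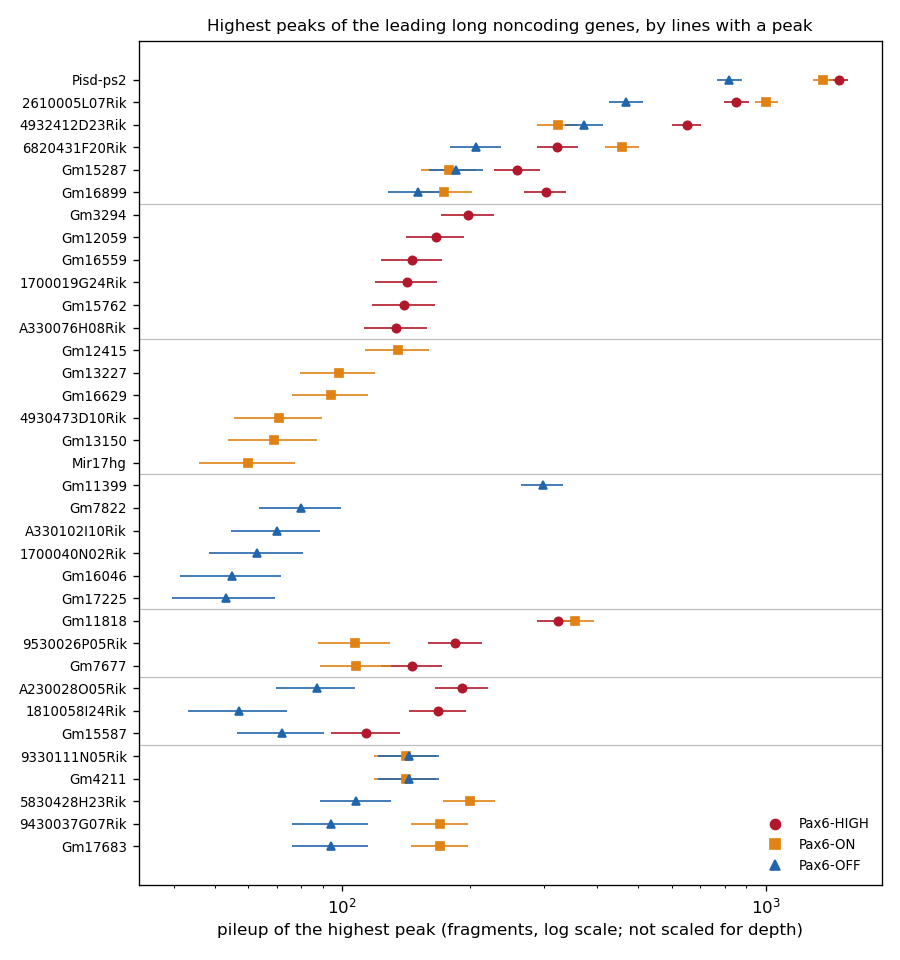
Pileup of the highest peak within 1 kb of the start (fragments, log axis, not scaled for depth) for the leading members of each combination of lines; symbols and colours give the line, horizontal bars are exact 95% Poisson intervals and grey lines separate the combinations. The top 6 rows had a peak in all 3 lines, and Pisd-ps2 is highest with 1487, 1366 and 820 fragments, while the members of a single line lie below 200 apart from Gm11399 with 297.

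Over all members with a peak, peaks were of middling height. The median pileup was 60 fragments in Pax6-HIGH cells (range 27 to 1487), 62 in ON (34 to 1366) and 51 in OFF cells (28 to 820), which placed the median member 42.7%, 47.4% and 47.7% from the top. Coding genes were placed at 27.4%, 43.4% and 37.4%. The highest 10% of all peaks of a line took in 34 members in Pax6-HIGH cells (12.7%), 21 in ON (20.8%) and 18 in OFF cells (12.7%). For coding genes with a peak this share was 21.3%, 13.8% and 13.2%, so members fell below coding genes in Pax6-HIGH cells and above them in Pax6-ON cells. Of the 21 in Pax6-ON cells, 4 had at least 50% of their words repeated, as did 5 of the 18 in Pax6-OFF and 2 of the 34 in Pax6-HIGH cells. Over all members with a peak the shares were 16.8% in Pax6-ON, 17.6% in OFF and 8.21% in HIGH cells. For coding genes in the highest 10% they were 7.60%, 4.87% and 1.74% in the same order.

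Summits lay farther from the annotated starts than at coding genes. In both, the 1 kb limit on peaks itself bounds the distance. The median distance between start and summit was 208 bp in Pax6-HIGH cells, 135 bp in ON and 152 bp in OFF cells, against 97, 104 and 94 bp at coding genes. The share within 250 bp was 53.7%, 60.4% and 65.5%, against 77.6%, 78.5% and 79.6%. In each line the summit was more often upstream than downstream, with 43.3%, 42.6% and 43.7% of summits downstream, near the 44.4%, 39.4% and 43.9% at coding genes. Among members open in all 3 lines the summit was within 250 bp in 63.3% in Pax6-HIGH cells, 69.4% in ON and 71.4% in OFF cells. Among members open in that line only, the share was 45.8%, 42.1% (of 19 members) and 60% (of 25 members). Coding genes gave 80.4%, 79.7% and 80.2% when open in all lines and 71.8%, 65.9% and 75.0% when open in 1 line, the same direction with smaller gaps in each line. The annotated start was covered by the peak itself in 60.1% of Pax6-HIGH members, 62.4% of Pax6-ON and 62.7% of Pax6-OFF members.

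**Figure D4:**
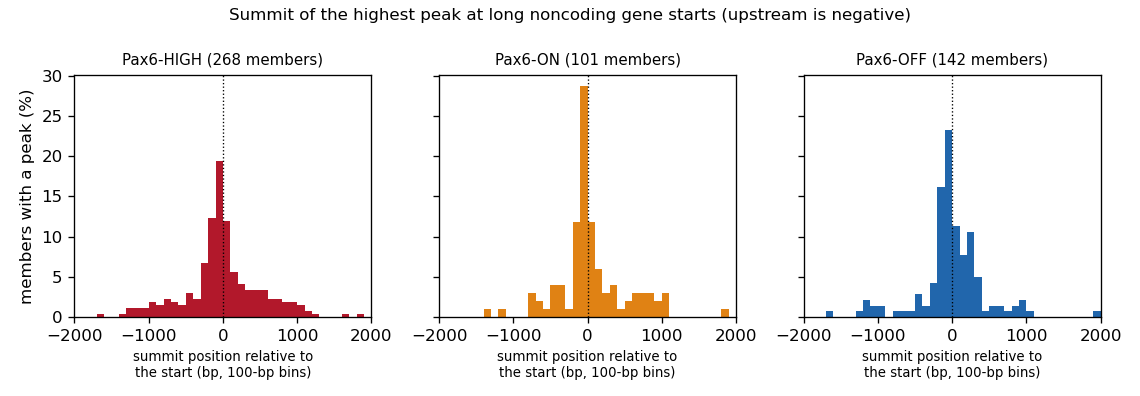
Position of the highest summit relative to the annotated start (bp, upstream negative, bins of 100 bp; a few summits beyond 1 kb belong to peaks that reach within 1 kb) as a share of the members with a peak in each line (%). Each distribution has tails to both sides, and 53.7%, 60.4% and 65.5% of summits lie within 250 bp. The 1 kb limit on peaks itself bounds these distances.

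Members outside coding genes were open more often than those inside them. Of 1430 members outside any coding gene, 226 (15.8%) had a peak, against 85 of 929 (9.15%) inside a coding gene on the opposite strand and 14 of 165 (8.48%) inside one on the same strand. This split did not separate lincRNA from processed_transcript genes, of which 26.0% and 8.86% had a peak. Of the 49 members open in all 3 lines, 46 lay outside coding genes and 0 lay inside one on the same strand. By distance to the nearest coding start, the shares were 10.9% at 2 to 5 kb, 16.1% at 50 to 100 kb and 11.0% beyond 100 kb, with no steady rise or fall. Members on the same strand as the nearest coding gene had a peak in 14.3%, divergent ones in 14.1% and convergent ones in 10.5% of cases. No highest peak of a member lay within 1 kb of a coding start.

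Members with a CpG-rich start were open more often than the others. Base composition was taken over 1000 bp around each start, and a start was counted as CpG-rich when over 50% of the bases were G or C and the CpG observed/expected ratio was above 0.6. Only 155 of the 2524 members (6.14%) were CpG-rich, against 45.1% of coding starts. Of these 155, 89 (57.4%) had a peak, while 236 of the 2369 others (9.96%) did. The same split at coding genes gave 82.9% and 19.8%, so members were open less often than coding genes of either composition. The gap between the types also remained within it, with 67.0% of CpG-rich lincRNA genes and 43.8% of CpG-rich processed_transcript genes open, and 18.5% and 7.66% of the others.

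CpG content around the start also moved with the lines in which a member was open. CpG-rich starts made up 29 of the 49 members open in all 3 lines (59.2%) and 28 of the 55 open in Pax6-HIGH and OFF cells (50.9%). Among members open in Pax6-HIGH and ON cells they made up 5 of 20 (25%). Among those open in Pax6-ON and OFF cells they made up 3 of 13 (23.1%). CpG-rich starts made up 21 of the 144 open only in Pax6-HIGH (14.6%), 3 of the 25 open only in Pax6-OFF (12.0%) and 0 of the 19 open only in Pax6-ON cells. The median CpG ratio was 0.657 in members open in all lines and 0.279, 0.191 and 0.311 in those open only in Pax6-HIGH, ON and OFF cells. Coding genes open in 1 line were CpG-rich in 60.5%, 53.3% and 67.7% of cases. At coding genes this share was thus over 50% even for genes open in a single line, which was not so for the members. These values describe the window around the annotated start and not the peak. Mir17hg, open only in Pax6-ON cells, was 42.7% G or C in that window but 81% in the 200 bases around its summit. Malat1, open only in Pax6-OFF cells, was 41.3% and 69.5% G or C in the same order.

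**Figure D5:**
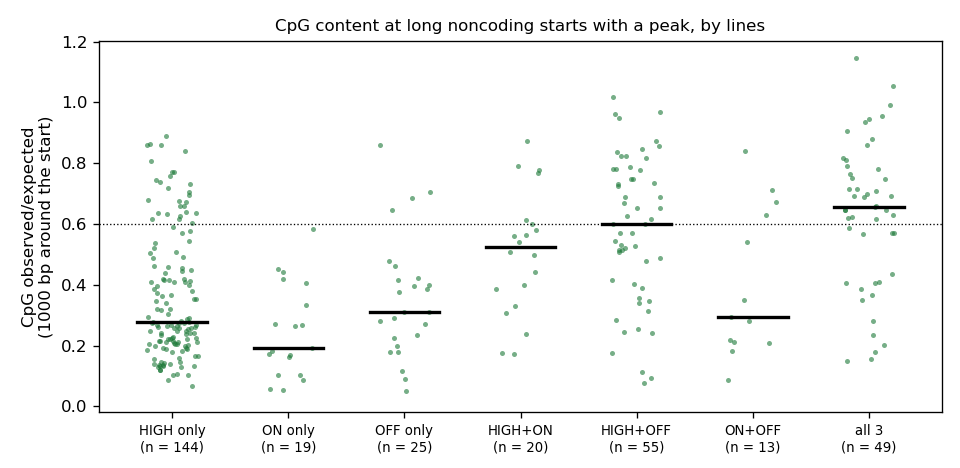
CpG observed/expected ratio over 1000 bp around the start for each of the 325 members with a peak (points, spread sideways at random), by the lines with a peak; black bars are medians and the dotted line marks the ratio of 0.6 used to count CpG-rich starts. Members open in all 3 lines have a median of 0.657, and those open only in Pax6-ON cells one of 0.191.

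The GC box was more frequent at members open in all lines than at those of 1 line, a direction that coding genes shared. Motifs were counted in 300 bases around the summit of each distinct highest peak. The GC box, the binding motif of Sp1-type factors, was found in 40.4% of member peaks in Pax6-HIGH cells, 48.9% in ON and 55.6% in OFF cells, against 33.7%, 40.9% and 50.2% of all peaks of the line and 74.6%, 77.5% and 78.4% of peaks at coding starts. In members open in all 3 lines it was found in 29, 32 and 35 of 45 peaks. In members of 1 line it was found in 35 of 144 (Pax6-HIGH), 5 of 19 (Pax6-ON) and 6 of 25 (Pax6-OFF). At coding genes it was found in 80.5%, 79.9% and 79.9% of peaks when open in all lines and in 61.2%, 56.5% and 67.6% when open only in Pax6-HIGH, ON or OFF cells.

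The AP-1 motif, bound by Fos and Jun dimers, was not more frequent over all member peaks of Pax6-ON cells than over all peaks of that line, but its share was higher in the members open only in Pax6-ON or only in OFF cells. Over all member peaks it was found in 24 of 260 (9.23%) in Pax6-HIGH cells, 16 of 94 (17%) in ON and 20 of 133 (15%) in OFF cells, against 12.4%, 28.4% and 14.7% of all peaks of these lines. It was found in 0, 1 and 1 of the 45 peaks of members open in all lines. In members open only in Pax6-ON cells it was found in 10 of 19 (52.6%), and in those open only in Pax6-OFF cells in 10 of 25 (40.0%). Members open only in Pax6-HIGH cells held it in 18 of 144 peaks (12.5%). Coding genes open only in Pax6-ON or OFF cells held it in 14.4% and 8.20%. The forkhead motif, bound by factors such as Foxa2, was found in 33 of all 260 member peaks in Pax6-HIGH cells (12.7%), below the 13.9% of all peaks of the line. It was found in 27 of the 144 peaks of members open only in Pax6-HIGH cells (18.8%), against 5.73% at coding genes of the same kind. The windows of members differ in base composition between these groups, and the part of that difference in the motif shares was not tested.

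Most of the well-known long noncoding RNAs had no peak, but a larger share of them had one than of all members. Of 26 members on 6 lists of named genes, 9 had a peak in some line, against 325 of all 2524 members (12.9%). Most of the 26 are lincRNA genes, a type with a peak in 26.0% of all its members, against 8.86% of processed_transcript genes. The part of gene type in the share of the lists was not tested. Among 6 imprinted transcripts, Airn alone had one, with 45 fragments in Pax6-HIGH and 36 in OFF cells, both in the lower part of their line at 62.1% and 80.6% from the top. H19, Meg3, Rian, Mirg and Nespas had none. The nearest peak to H19, a maternally expressed RNA beside Igf2, was 44325 bp away in Pax6-HIGH and 140546 bp away in OFF cells, and none lay closer than 120648 bp to Meg3. Nespas, antisense to the Gnas locus, had a Pax6-HIGH peak of 41 fragments at 3090 bp, outside the limit.

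Among nuclear RNAs, Malat1 (chr19:5795690-5802671, minus strand), a speckle RNA abundant in most cells, had a peak only in Pax6-OFF cells, with 46 fragments (34 to 61) at 932 bp upstream of the start. Neat1 (chr19:5824708-5845478, minus strand), the scaffold of paraspeckles, had one only in Pax6-HIGH cells, with 59 fragments (45 to 76) at 978 bp upstream. Both summits lay near the 1 kb limit. Within 500 bp of the start Malat1 had no peak, while Neat1 had a lower one of 54 fragments. Miat had no peak, and the nearest lay 41824 bp away in Pax6-HIGH cells. Of 4 hosts of small nucleolar RNAs, Snhg5 had a peak in every line, with 52 fragments in Pax6-HIGH cells, 55 in ON and 44 in OFF cells, while Snhg4, Snhg7 and Snhg12 had none. The other hosts on the list with a long noncoding type, Gas5, Snhg1, Snhg3 and Snhg9, begin within 2 kb of a coding start and are not members.

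Of the microRNA hosts, Mir17hg (chr14:115442101-115445949, plus strand) had 60 fragments (46 to 77) in Pax6-ON cells only, 678 bp upstream of its start, and Dleu2, host of miR-15a and miR-16-1, had 49 in Pax6-HIGH and 72 in OFF cells. The summits of these Dleu2 peaks lay 1222 and 1057 bp from the start, and within 500 bp of it were lower peaks of 45 and 55 fragments. Dnm3os had no peak. Of 6 developmental transcripts, Six3os1, on the strand opposite the eye field gene Six3, had 42 fragments in Pax6-ON cells, at 85.1% from the top of that line. Nkx2-2as, beside the islet factor gene Nkx2-2, had none within 1 kb, but a Pax6-HIGH peak of 71 fragments lay 2342 bp away. Dlx1as had a peak in each line at about 5 kb, at 4979 bp in Pax6-HIGH cells, 4876 bp in ON and 4869 bp in OFF cells. Dlx6os1, Rmst and Sox2ot had none within 1 kb either. Of 4 growth and p53-related transcripts, Pvt1, which lies 50565 bp from the start of Myc, had 68 fragments in Pax6-HIGH and 33 in OFF cells, 1700020I14Rik had 46 in Pax6-HIGH cells, and 2700086A05Rik and Gm14005 had none.

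Some members are not long noncoding genes by another annotation. RefSeq held 1257 members by symbol or synonym. It typed 1079 of them as lncRNA, 89 as protein-coding, 46 as transcribed pseudogenes and 32 as pseudogenes. The peaks were more frequent in the reclassified ones, with 23 of 89 protein-coding (25.8%) and 14 of 46 transcribed pseudogenes (30.4%) open, against 14.7% of those typed lncRNA and 9.55% of the 1267 without a match. Examples open in all 3 lines are Spcs3, which encodes a signal peptidase subunit, with 213, 61 and 75 fragments, and Enho, which encodes the peptide adropin, with 117, 43 and 46, both named after their values were seen. Without the 89, 302 of 2435 members (12.4%) had a peak in any line.

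Copies of the sequence were more common at members than at coding genes. At least 50% of the 31-base words around the summit had another copy in 22 of 268 Pax6-HIGH members (8.21%), 17 of 101 Pax6-ON (16.8%) and 25 of 142 Pax6-OFF members (17.6%), against 2.07%, 3.00% and 2.47% at coding genes. By group, this held for 2 of the 144 members open only in Pax6-HIGH cells, 3 of the 19 only in ON and 4 of the 25 only in OFF cells. Of the 13 open in Pax6-ON and OFF cells, it held for 3 at the ON summit and 1 at the OFF summit. At the Pax6-HIGH summit it held for 10 of the 55 open in Pax6-HIGH and OFF cells. There it also held for 1 of the 20 open in Pax6-HIGH and ON cells and 9 of the 49 open in all lines. Speer7-ps1, with 170, 100 and 164 fragments, and Gm17255, with 141, 68 and 120, are examples open in all lines whose words were repeated in 90.6% and 100% at that summit, again named after their values were seen. Leaving out the 34 members with such sequence in any line left 291 of 2490 (11.7%) with a peak and 38 open in all 3 lines.

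The limits of the rule were read from the genes beside them. Gm16188 and Gm15903, at 1975 and 1983 bp from a coding start, were left out, and Gm11723 and Gm15690, at 2005 and 2017 bp, were kept, the former pair with a Pax6-HIGH peak at Gm16188 only and the latter pair with none. For the 1 kb limit, the farthest peak counted in Pax6-HIGH cells lay 998 bp from the start of 1110002J07Rik (98 fragments) and the nearest not counted lay 1020 bp from Gm17642 (49 fragments). In Pax6-ON cells these were 0610025J13Rik at 938 bp (145 fragments) and 1700040N02Rik at 1024 bp (84 fragments). In Pax6-OFF cells they were Gm11724 at 993 bp (35 fragments) and Gm17514 at 1111 bp (59 fragments).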

How the data were processed

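ATAC-seq libraries of 3 mouse cell lines, 2 replicates each, were analysed from 1 peak table per line. The authors trimmed reads with Trim Galore 0.4.1, aligned them to mm9 with Bowtie2 2.2.6 and called peaks with MACS2 2.1.1 on both replicates pooled, without a control and at a q-value cut of 0.05. Pileup, as deposited, is a coverage signal that counts the fragments over the summit and was not scaled for depth. The deposited fold enrichment is a ratio to the local background, and the authors' p-values and q-values are given as −log10 values. MACS2 took whole fragments without a Tn5 shift and kept duplicates, which can widen peaks and raise pileups at repeats.

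Members and lists were chosen with earlier results of these data known. Named genes were the leading 6 of each single-line group and of the all-line group, the leading 3 of each group of 2 lines, ordered by pileup rank (mean rank where several lines applied), and all members on the 6 lists. Starts came from GENCODE M1 on NCBIM37. RefSeq types were matched by symbol, or else by a synonym that carried a single type, and no RefSeq coordinates were used. The sequences shown were chosen after the copies of their words were seen. Sequence was read with pysam 0.24.0, and tables with pandas 2.3.3 and numpy 2.4.6 in Python 3.11.15, with intervals from SciPy 1.17.1. The scripts were checked on simulated starts, peaks and sequences and recovered all that was planted. No test was run, because genes are not replicates and each line is 1 call. Narrow-peak files with the same peaks were not used. Alternatives were other distances, the summit rule, a q-value cut of 0.001, 9821 peaks per line, other start definitions, starts within 1 kb counted once and required overlap.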

Additional observations from a re-analysis of the deposited data

Results flagged for a closer look

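Chromosome X lies outside the rule and entered no comparison, but peaks were present there too. Of 141 long noncoding starts over 2 kb from coding starts on chromosome X, 13 (9.22%) had a peak within 1 kb in Pax6-HIGH cells, 5 (3.55%) in ON and 8 (5.67%) in OFF cells. Examples are Gm14720 with 93 fragments in Pax6-HIGH and 46 in OFF cells, and 2210013O21Rik with 35, 38 and 32 fragments in Pax6-HIGH, ON and OFF cells. There is no control sample, and these values have no replicate error.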

How the results depend on the processing

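No replicate could be left out and no paired analysis was possible because both replicates of a line were pooled in 1 call. With 9821 peaks per line, members with a peak numbered 101 in Pax6-HIGH cells and 185 in any line, with 36 only in Pax6-HIGH, 37 only in Pax6-ON and 48 in 2 lines. The same setting moved the median Pax6-HIGH place to 47.3% from the top, its summits within 250 bp to 61.4% and CpG-rich starts to 36.2% of members with a peak. Fewer peaks lower the counts per line and in any line by construction. A count in a single line can rise when peaks of the other lines are dropped, and that only in Pax6-ON cells rose from 19 to 37. The cause of the other changes was not tested. The count only in Pax6-ON cells was 12 within 500 bp and 29 within 2 kb. Summits within 250 bp made up 64.4% in Pax6-HIGH and 71.8% in Pax6-ON cells with peaks within 500 bp. They made up 44.6%, 48.7% and 53.2% in Pax6-HIGH, Pax6-ON and Pax6-OFF cells with peaks within 2 kb, where CpG-rich starts fell to 22.7%. Requiring peaks to overlap by 50% of both left 29 members in all 3 lines, against 49 with 1 bp. The other alternatives moved no count by over 1.5 times. Leaving out members typed as coding, repeated sequence or chromosome 6, and all alternatives for summits, ranks and CpG content, were chosen after seeing the data. Of 71 peaks of named genes, 10 were lost within 500 bp and 5 when the summit itself had to lie within 1 kb, and ranking by fold enrichment moved 63 of the 71 places, by a median of 7.43 percentage points over all 71. Sites that were not called have no value, and no called peak had under 25 fragments (30 in Pax6-ON cells). Pax6-ON cells had the most fragments and the fewest peaks, and the part of depth in the peak numbers was not tested.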
